A study of Mus musculus with 2 samples.

Results

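The collagen receptor GPVI and the podoplanin receptor CLEC-2 signal through the kinase Syk, and the transcripts of this cascade were compared between washed platelets of Smad4 −/− and Smad4 f/f mice. The members are 10 genes chosen by name, though with earlier results of these data known. They are the receptor genes Gp6 and Clec1b, the receptor chain gene Fcer1g, and the kinase genes Syk and Btk. With them are the adaptor genes Lat and Lcp2, the exchange factor genes Vav1 and Vav3, and the phospholipase gene Plcg2. All of the probe sets whose single gene symbol in the array annotation is one of these were taken, 17 of 45037 probe sets that are not controls, for 10 of 18193 annotated genes. In the Smad4 −/− mice a Cre recombinase under the PF4 promoter, which is active in megakaryocytes, deletes a Smad4 gene flanked by loxP sites. The Smad4 f/f mice carry the flanked gene and serve as controls, called wildtype in the labels, and the sources used here do not say whether they carry the recombinase. Both groups are C57BL/6, and their age is not stated either. Each genotype has 6 mice and 1 Affymetrix whole-genome mouse array, so each difference is a difference between 2 arrays, with no replicate check and no test, and its precision is limited by the number of arrays. The sources used here do not say whether the RNA of 6 mice was pooled for an array.

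GPVI is an immunoglobulin-family receptor found on megakaryocytes and platelets. It has no activation motif of its own and pairs with the Fc receptor gamma chain, which carries an immunoreceptor tyrosine-based activation motif, ITAM. CLEC-2 carries a single copy of the tyrosine motif in its own tail. Src family kinases and Syk phosphorylate these tyrosines, Syk binds them through its SH2 domains, and it then phosphorylates the adaptors LAT and SLP-76. On that scaffold the kinase BTK and the exchange factors VAV1 and VAV3 come together with phospholipase C gamma 2, which makes the messengers that release calcium and activate protein kinase C. Platelets have no nucleus, so their RNA was made in the megakaryocyte.

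Signals are given on the linear scale of the arrays, where 145 (7.18 on the log2 scale) was used as a floor. It was set at the 60th percentile of an array's signals, taking the array with the higher one, and a probe set counted as measured where at least 1 array reached it. A ratio is Smad4 −/− over Smad4 f/f of values raised to the floor, so a ratio with 1 array below it is a lower bound on the size of the difference. The platelet label was checked on 16 platelet genes with a probe set, such as Pf4, Itga2b and Gp9: all 16 were measured, with log2 ratios by the strongest probe set from −0.47 to 0.43 and a median of 0.10. Selp, the lowest of them, had 3 measured probe sets with ratios down to −1.04 and a mean of −0.82. F2rl3 read 77 in Smad4 −/−, below the floor, and 164 in Smad4 f/f, so its ratio of −0.18 could only be below 0. Smad4 itself read 894 in Smad4 −/− and 949 in Smad4 f/f by its strongest probe set, and all 3 of its probe sets had log2 ratios between −0.13 and −0.09. Whether these probe sets lie in the deleted part of the gene was not analysed here, so they do not check the genotype. As a measure of RNA quality, the 3′ to 5′ ratio of the Gapdh control was 2.61 in Smad4 −/− and 1.86 in Smad4 f/f, and that of beta-actin was 1.27 in Smad4 −/− and 1.16 in Smad4 f/f.

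Of the 17 probe sets, 12 reached the floor on both arrays and 4 on only 1 array, and 1 probe set of Vav3 lay below it on both. By the strongest probe set of each gene, 1 of the 10 genes was at least 2-fold lower in Smad4 −/−, 0 were at least 2-fold higher and 9 lay within 2-fold. Among all 11089 measured genes, 7.00% passed 2-fold in either direction, 3.58% of them lower, so a count of 1 in 10 genes is near the background. Of the 16 measured probe sets, 3 were at least 2-fold lower and 1 at least 2-fold higher, where 3.51% of all measured probe sets were lower and 3.24% higher, 6.75% in all. Those 4 probe sets belong to only 2 genes, 3 to Syk and 1 to Lcp2, and 2 of them are bounds. With each array centred on its median, 1 probe set was at least 2-fold lower, the strongest of Syk, and 1 higher; that centring also moved the share of higher genes among all those past 2-fold to 60.3%, against 48.8% as deposited. The 10 gene ratios had a median of 0.06 on the log2 scale, against −0.02 over all measured genes, with 5 genes above 0 and 5 below.

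**Figure D1:**
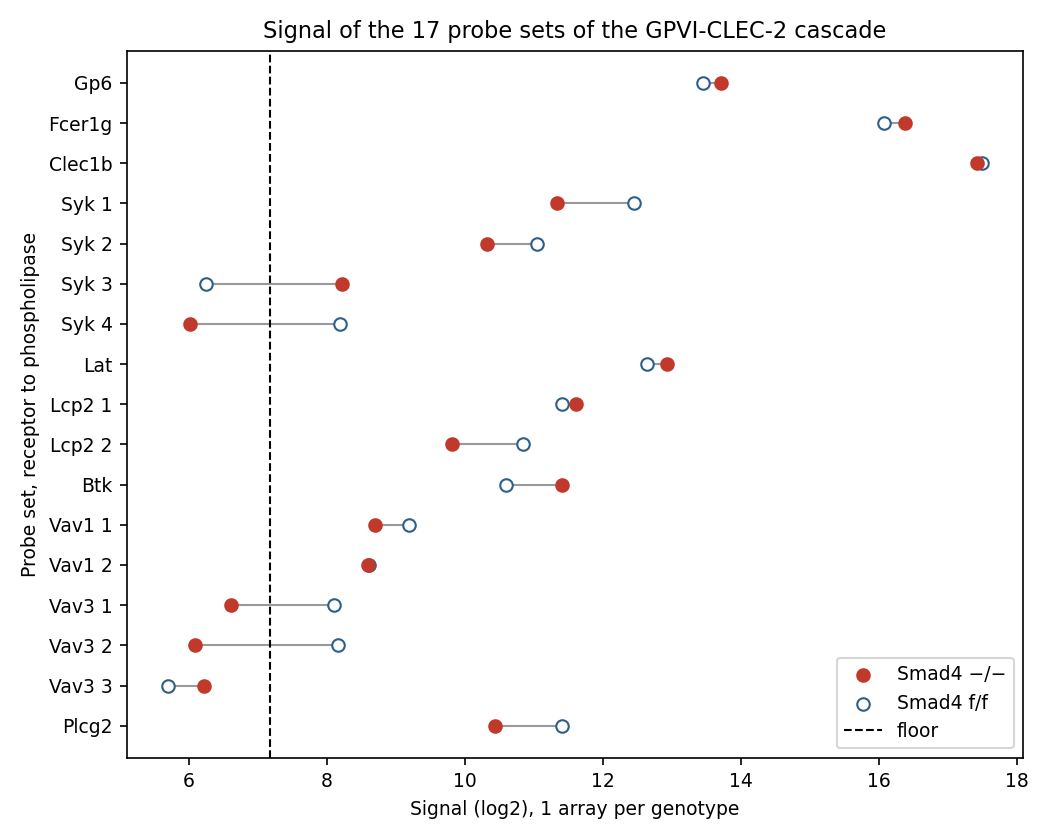
Signal of each of the 17 probe sets (log2, horizontal axis) in Smad4 −/− (filled circles) and Smad4 f/f (open circles), 1 array per genotype, listed from receptor to phospholipase. Where a gene has several probe sets they are numbered from the strongest. The 2 arrays lie close together for each of the 3 receptor genes, and the wider gaps are those of Syk, Lcp2 2, Btk, Vav3 and Plcg2.

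The transcripts of the receptors differed little between the arrays. Gp6, the collagen-binding chain of GPVI, read 13353 in Smad4 −/− and 11243 in Smad4 f/f by its only probe set (1446554_at). That probe set is annotated to an expressed sequence tag and gave a log2 ratio of 0.25. Fcer1g, which encodes the ITAM-bearing chain that GPVI needs at the surface, read 84919 in Smad4 −/− and 68606 in Smad4 f/f (1418340_at), a log2 ratio of 0.31. Clec1b, which encodes CLEC-2, read 174212 in Smad4 −/− and 184485 in Smad4 f/f (1421182_at), a log2 ratio of −0.08. So both chains of the GPVI complex were slightly higher and CLEC-2 slightly lower in Smad4 −/−, and all 3 ratios lie inside the range of the 16 platelet genes by their strongest probe sets. The sign of the Clec1b ratio turned to 0.01 when each array was centred on its median. Its log2 signal of 17.41 in Smad4 −/− and 17.49 in Smad4 f/f lies close to the top of these arrays, at 17.90 in Smad4 −/− and 17.85 in Smad4 f/f, and whether bright probes were saturated was not tested. Fcer1g is also transcribed in myeloid cells and mast cells. Tyrobp, an ITAM adaptor chain of myeloid and NK cells, read 997 in Smad4 −/− and 651 in Smad4 f/f. Other myeloid markers did not all share this direction. The 9 measured monocyte and macrophage markers, Tyrobp among them, had a median log2 ratio of 0.01, with 5 above 0. Ms4a6c read 361 in Smad4 −/− and 720 in Smad4 f/f by its strongest probe set. Mpeg1 read 71 in Smad4 −/−, below the floor, and 280 in Smad4 f/f, so its ratio could only be below 0. The mast cell receptor genes Fcer1a and Ms4a2 lay below the floor on both arrays. The part of other cells in the Fcer1g ratio was not tested.

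Syk was the only member past 2-fold by its strongest probe set, and its probe sets had the widest range of ratios among the members. At the floor used its ratio was the lowest, but that of Vav3 is a bound and was lower than that of Syk with the floor at the 50th percentile or with none. Its strongest probe set (1418261_at) read 2586 in Smad4 −/− and 5571 in Smad4 f/f, 2.15-fold lower with a log2 ratio of −1.11. The second (1418262_at) read 1278 in Smad4 −/− and 2119 in Smad4 f/f, 1.66-fold lower. Both strong probe sets of this kinase were thus lower in Smad4 −/−, with a mean log2 ratio of −0.92. Of all measured probe sets, 2.36% had a lower ratio than the strongest and 8.50% a lower one than the second. In a bulk sample such as this, fewer cells of a type and less RNA per cell cannot be told apart. The 2 weak probe sets went opposite ways. The probe set annotated to a Syk mRNA (1425797_a_at) read 65 in Smad4 −/−, below the floor, and 293 in Smad4 f/f, at least 2.01-fold lower. The probe set annotated to an expressed sequence tag (1457239_at) read 299 in Smad4 −/− and 76 in Smad4 f/f, where it was below the floor, at least 2.06-fold higher. For the 2 strong probe sets the annotation used gives no target sequence. Which Syk transcripts the 4 probe sets detect was not analysed here. Of 4252 genes with at least 2 measured probe sets, 0.447% had, like Syk, probe sets at least 2-fold apart in both directions. Over its 4 probe sets the mean log2 ratio of Syk was −0.45, with an SD of 1.01 between probe sets.

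The stretches before the annotated starts of Syk, Plcg2 and Btk are shown because these 3 genes had the largest differences by a strongest probe set that reached the floor on both arrays, and because SMAD4 is a DNA-binding protein. The sequences are those of RefSeq on GRCm38.p6, 250 bases upstream of each start, read 5′ to 3′ on the strand of the gene. Syk has 2 annotated starts, at chr13:52583187-52583436 and chr13:52596632-52596881 on the plus strand. That of Plcg2 is chr8:117498025-117498274 on the plus strand and that of Btk chrX:134583141-134583390 on the minus strand. Capitals mark the SMAD box CAGAC and the GATA motif AGATAA, searched on both strands.
Syk, first start: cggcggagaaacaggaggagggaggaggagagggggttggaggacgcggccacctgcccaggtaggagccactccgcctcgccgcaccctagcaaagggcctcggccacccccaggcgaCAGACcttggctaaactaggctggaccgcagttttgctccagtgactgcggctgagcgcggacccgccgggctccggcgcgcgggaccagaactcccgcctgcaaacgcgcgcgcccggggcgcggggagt
Syk, second start: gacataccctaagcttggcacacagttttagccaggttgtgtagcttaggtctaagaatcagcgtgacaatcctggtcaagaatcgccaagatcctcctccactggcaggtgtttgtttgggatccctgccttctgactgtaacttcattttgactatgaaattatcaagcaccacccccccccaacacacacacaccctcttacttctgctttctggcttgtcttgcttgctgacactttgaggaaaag
Plcg2: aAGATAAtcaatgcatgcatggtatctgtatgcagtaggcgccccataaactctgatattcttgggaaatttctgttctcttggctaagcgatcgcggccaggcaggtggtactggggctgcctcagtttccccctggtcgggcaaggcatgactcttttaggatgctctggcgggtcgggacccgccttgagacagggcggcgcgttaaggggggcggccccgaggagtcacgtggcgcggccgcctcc
Btk: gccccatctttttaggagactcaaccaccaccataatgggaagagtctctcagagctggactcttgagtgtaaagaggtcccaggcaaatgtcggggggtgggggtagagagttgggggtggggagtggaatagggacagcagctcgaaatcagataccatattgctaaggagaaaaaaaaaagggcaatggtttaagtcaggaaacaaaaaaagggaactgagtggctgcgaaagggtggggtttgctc
The first start of Syk holds 1 CAGAC, which begins 131 bases before the start, and the second start holds neither motif. The Plcg2 stretch holds 1 AGATAA at its far end, 249 bases before the start, and the Btk stretch holds neither. Over 13 starts of the 10 members, CAGAC occurred in 6, those of Gp6, Fcer1g, Lcp2 and Vav1 beside 1 start each of Syk and Vav3, and it occurs in 42.2% of 32851 upstream stretches of this length. AGATAA occurred in 3 of the 13, before Gp6, Lcp2 and Plcg2, and in 9.99% of all. The SMAD palindrome GTCTAGAC was in none of the 13 and in 0.167% of all. No 2 of these matches overlapped in the members. A match is only a run of letters, and whether SMAD4 binds at any of them was not tested.

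Among the adaptor genes, Lat had only 1 probe set, and the 2 probe sets of Lcp2 disagreed. Lat, which encodes the membrane scaffold that Syk phosphorylates, read 7783 in Smad4 −/− and 6369 in Smad4 f/f (1460651_at), a log2 ratio of 0.29. Lcp2 encodes SLP-76, the cytosolic adaptor that joins the LAT scaffold. Its stronger probe set (1418641_at) read 3113 in Smad4 −/− and 2722 in Smad4 f/f, a log2 ratio of 0.19. Its weaker one (1418642_at) read 902 in Smad4 −/− and 1840 in Smad4 f/f, 2.04-fold lower with a log2 ratio of −1.03. Both probe sets are annotated to the same mRNA and reached the floor on both arrays, and yet they went opposite ways, so no direction can be given for Lcp2. Probe sets on opposite sides of 0 were common on these arrays, in 52.4% of the genes with at least 2 measured probe sets, and in 2 of the 4 members with at least 2, Syk and Lcp2.

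Btk was the member with the highest ratio. This Tec-family kinase phosphorylates phospholipase C gamma 2, and its gene read 2710 in Smad4 −/− and 1555 in Smad4 f/f (1422755_at), 1.74-fold higher with a log2 ratio of 0.80. Of all measured probe sets, 94.1% had a lower ratio. Btk is transcribed in B cells too. Of 10 measured B cell markers, 8 were above 0 and 2 were at least 2-fold higher in Smad4 −/−, Jchain at least 3.73-fold and Cr2 2.33-fold, and the summed signal of 11 B cell markers was 7689 in Smad4 −/− and 6478 in Smad4 f/f. Cd79a, Cd22 and Ebf1 had log2 ratios of 0.78, 0.44 and 0.50, and Cd79b, Blnk and Fcer2a ones of 0.21, 0.10 and 0.04. The 2 measured markers below 0 were Ms4a1 at −0.01 and Blk at −0.84. The strongest signals of the list were those of Ms4a1, Blnk and Cd79b. Jchain was below the floor in Smad4 f/f, so its ratio could only be above 0. The part of B cells in the Btk ratio was not tested.

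The exchange factors VAV1 and VAV3 activate Rac GTPases and help to activate phospholipase C gamma 2. By its stronger probe set (1440300_at), annotated to an expressed sequence tag, Vav1 read 415 in Smad4 −/− and 587 in Smad4 f/f, a log2 ratio of −0.50. Its other probe set (1422932_a_at) read 386 in Smad4 −/− and 390 in Smad4 f/f, a log2 ratio of −0.01, so 1 probe set differed and the other hardly did. Vav3 was weak on both arrays. It read 98 in Smad4 −/−, below the floor, and 276 in Smad4 f/f by its strongest probe set (1448600_s_at), at least 1.90-fold lower. A second probe set (1417122_at) read 68 in Smad4 −/−, also below the floor, and 286 in Smad4 f/f, at least 1.97-fold lower. The third (1417123_at) was below the floor on both arrays, with 75 in Smad4 −/− and 52 in Smad4 f/f. The 2 measured probe sets of Vav3 reached the floor only in Smad4 f/f, so their ratios could only be below 0 and their common direction adds nothing. The size of the ratio depends on the floor. With the floor at the 50th percentile the log2 ratio of the strongest was −1.40 and with none −1.50, both past 2-fold. With the floor at the 75th it was −0.08.

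Plcg2 stands at the end of the cascade. It encodes the phospholipase that turns the membrane lipid PIP2 into IP3 and diacylglycerol. Its only probe set (1426926_at), annotated to an expressed sequence tag, read 1389 in Smad4 −/− and 2716 in Smad4 f/f. It was 1.96-fold lower, just short of 2-fold, with a log2 ratio of −0.97, and 4.0% of all measured probe sets had a lower ratio. Plcg1, which encodes the related phospholipase C gamma 1 of T cells and other tissues, went the other way, with 444 in Smad4 −/− and 228 in Smad4 f/f, a log2 ratio of 0.96 from a weaker signal. B cells also carry Plcg2, and the part of such cells in its ratio was not tested.

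**Figure D2:**
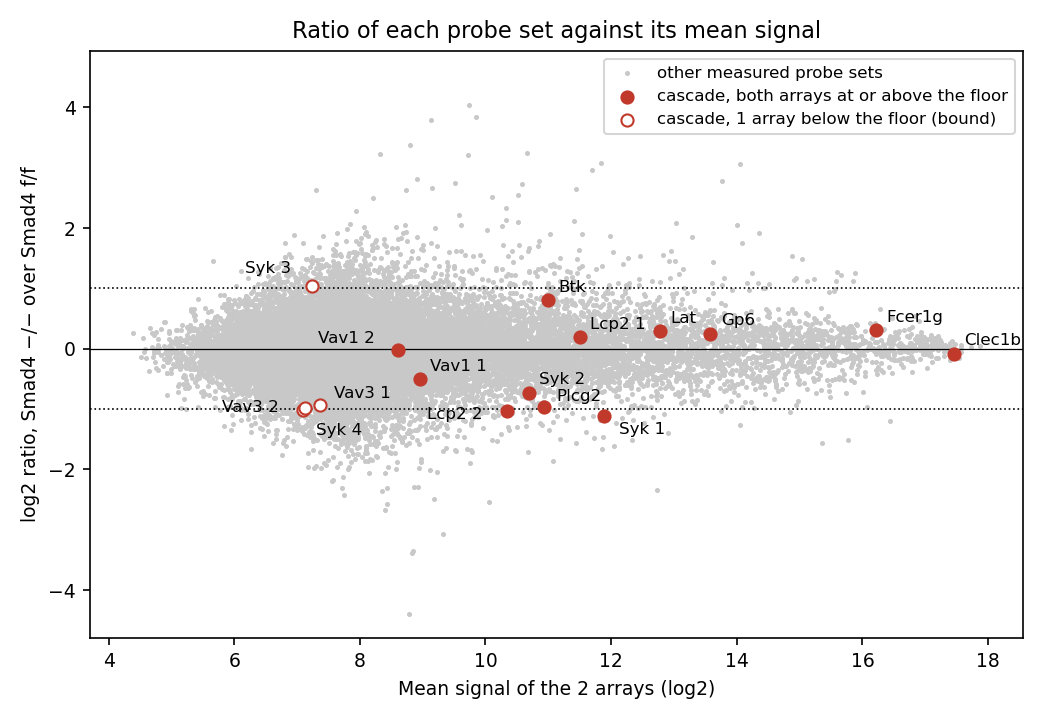
Log2 ratio of Smad4 −/− over Smad4 f/f (vertical axis) against the mean signal of the 2 arrays (log2, horizontal axis), for all 21377 measured probe sets (grey) and the 16 of the cascade (red; open where 1 array is below the floor). Dotted lines mark 2-fold. Spread narrows as signal rises, and Syk 1, Plcg2 and Lcp2 2 lie towards the lower edge of the cloud and Btk towards its upper edge.

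Weak probe sets scatter more on these arrays, so the members were also read among strong ones only. With a mean log2 signal of at least 10, 10 member probe sets were left, of which 2 were at least 2-fold lower, Syk and the weaker one of Lcp2, and 0 were higher. The share over 4622 such probe sets was 1.41% lower and 2.88% higher, 4.28% in all. The middle 90% of these probe sets had log2 ratios from −0.68 to 0.76, and the member probe sets outside it were the 2 strong ones of Syk, Plcg2, the weaker one of Lcp2 and Btk. Probe sets of the same gene give a technical yardstick: the log2 ratios of a gene's probe sets had a pooled SD of 0.26 over 948 genes with at least 2 strong probe sets, and 0.48 over all 4252 genes with at least 2 measured ones. Within the 4 members with at least 2 measured probe sets it was 0.81. This yardstick holds no spread between mice or arrays, so it does not say whether any of these differences would recur.

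Set along the cascade, the strongest probe sets gave log2 ratios of 0.25 for Gp6, 0.31 for Fcer1g and −0.08 for Clec1b at the receptors, −1.11 for Syk, 0.29 for Lat and 0.19 for Lcp2 at the scaffold, 0.80 for Btk, −0.50 for Vav1, −0.92 as a bound for Vav3 and −0.97 for Plcg2. The genes therefore did not lie on one side of 0, with 5 above and 5 below. The values of Lcp2, Vav1 and Vav3 depend on the probe set or floor: with the mean of probe sets Lcp2 was −0.42 and Vav1 −0.26, and with the floor at the 75th percentile Vav3 was −0.08.

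Other genes of the pathway were read from lists of adaptors, kinases, effectors, ligands and other ITAM chains. Of 74 listed genes 69 had a probe set and 57 were measured. In all, 0 of 57 were at least 2-fold higher and 1 at least 2-fold lower in Smad4 −/−, where 3.42% of all measured genes were higher and 3.58% lower, and the median was 0.09. All 24 measured adaptor genes lay within 2-fold, with a median of −0.04. Shc1, a growth factor adaptor, had the highest ratio, with 376 in Smad4 −/− and 218 in Smad4 f/f, and Sos1, a Ras exchange factor, the lowest, with 150 in Smad4 −/− and 216 in Smad4 f/f. The partners closest to the LAT scaffold can be set beside Lat and Lcp2. Grap2, which encodes the GADS adaptor that links SLP-76 to LAT, read 3800 in Smad4 −/− and 2862 in Smad4 f/f, with log2 ratios of 0.41 and 0.72 for its 2 probe sets. Grb2, a general adaptor that also binds LAT, read 3324 in Smad4 −/− and 4726 in Smad4 f/f. Skap2 and Fyb, which carry the signal from SLP-76 towards integrins, had log2 ratios of −0.02 and 0.10. Grap2, Grb2, Skap2 and Fyb are named for their role and were picked after their values were seen.

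Of the kinase list 4 genes were measured and all 4 were above 0 within 2-fold. Tec, a relative of Btk, read 463 in Smad4 −/− and 318 in Smad4 f/f, a log2 ratio of 0.54. Zap70, the relative of Syk found in T and NK cells, read 1350 in Smad4 −/− and 949 in Smad4 f/f, a log2 ratio of 0.51, so it did not share the direction of the strong Syk probe sets. T and NK cell markers stood on the same side, 5 of 6 measured being above 0 with Zap70 itself among them. The exception was Cd3d, the only CD3 chain measured, with 181 in Smad4 −/− and 356 in Smad4 f/f, a log2 ratio of −0.98. Cd8a and Ncr1, by their strongest probe sets, were below the floor in Smad4 f/f, so their ratios could only be above 0. The list had a summed signal of 2627 in Smad4 −/− and 1993 in Smad4 f/f over 10 genes, and Cd3e, Cd3g, Cd247 and Cd4 lay below the floor on both arrays. The part of such cells in the Zap70 ratio was not tested.

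All 13 measured effector genes lay within 2-fold, with a median of −0.02. Plcg1 was the highest, and Swap70, a Rac-binding protein, the lowest, with 440 in Smad4 −/− and 705 in Smad4 f/f by its stronger probe set and disagreement between its 2 probe sets (log2 ratios of −0.68 and 0.52). Vav2, the third of the Vav exchange factors, read 185 in Smad4 −/− and 75, below the floor, in Smad4 f/f, at least 1.28-fold higher. With this probe set at the floor only in Smad4 −/−, its ratio could only be above 0. Rac1, the GTPase that Vav proteins act on, read 77989 in Smad4 −/− and 83316 in Smad4 f/f. Vav2 and Rac1 were also picked after their values were seen. Of 5 genes for ligands of the receptors, Pdpn, which encodes podoplanin, and Col1a1 lay below the floor on both arrays. Lama5, a laminin chain, read 339 in Smad4 −/− and 206 in Smad4 f/f with its 2 probe sets on opposite sides of 0, and Col3a1, a fibrillar collagen, read 154 in Smad4 −/− and 180 in Smad4 f/f.

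Of 21 other ITAM chains and receptors with a probe set, 13 were measured, 9 of them above 0, with a median of 0.21. By the strongest probe set, 11 genes reached the floor in Smad4 −/− and 11 in Smad4 f/f. For a gene that reached it on only 1 array, the side of 0 was fixed by the floor. The single gene past 2-fold was Siglech, a receptor of plasmacytoid dendritic cells, which read 111 in Smad4 −/−, below the floor, and 293 in Smad4 f/f, at least 2.02-fold lower. The strongest signal of that list was Clec4d, a C-type lectin that couples to the same gamma chain as GPVI, with 26446 in Smad4 −/− and 39629 in Smad4 f/f, a log2 ratio of −0.58. It went against Fcer1g, while Clec7a, which like CLEC-2 carries a single tyrosine motif, read 760 in Smad4 −/− and 433 in Smad4 f/f, a log2 ratio of 0.81. Clec4d and Clec7a were picked after their values were seen.

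**Figure D3:**
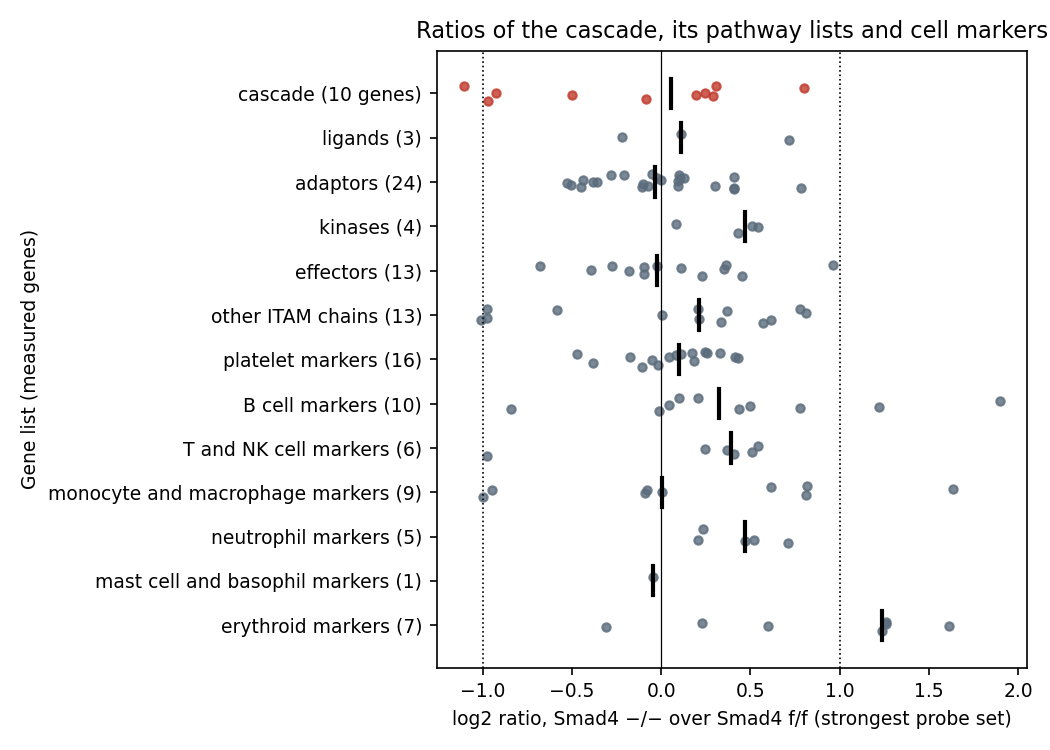
Log2 ratio of Smad4 −/− over Smad4 f/f (horizontal axis) for each measured gene of the cascade (red) and of the pathway and marker lists (grey), by the strongest probe set, with the median of each list as a black bar. Dotted lines mark 2-fold. The cascade spreads from −1.11 to 0.80 about a median of 0.06, and the platelet markers from −0.47 to 0.43 by the same choice of probe set.

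Markers of other blood cells stand beside these ratios as follows. Red cell genes had a list median of 1.24. Of 7 measured markers, 4 were at least 2-fold higher in Smad4 −/−, Fech and Alas2 among them at 3.06-fold and 2.40-fold. Ank1 had a log2 ratio of 0.23, and Klf1 one of −0.31, with 217 in Smad4 −/− and 269 in Smad4 f/f. In all, 6 of the 7 were above 0, and Hba-a1 lay below the floor on both arrays. The summed signal was 21255 in Smad4 −/− and 8356 in Smad4 f/f over 9 genes. All 5 measured neutrophil markers were above 0, with S100a8 the strongest. Of these, Ltf, Ngp and Cxcr2 were below the floor in Smad4 f/f, so their ratios could only be above 0. The summed signal was 7844 in Smad4 −/− and 5972 in Smad4 f/f over 8 genes, and Mpo, Elane and Camp lay below the floor on both arrays. The 9 measured monocyte and macrophage markers had a median of 0.01, with Csf1r 3.11-fold higher by its strongest probe set but 0.28 as the mean log2 ratio of its 3, and Cd14, Ccr2 and Itgam were below the floor on both arrays. Their summed signal was 134860 in Smad4 −/− and 142607 in Smad4 f/f over 12 genes, nearly all of it from Lyz2. Of 7 mast cell and basophil genes only Gata2, also a megakaryocyte gene, was measured by its strongest probe set, with a log2 ratio of −0.05. The part of these cells in the ratios of Syk, Lcp2, Vav1 and Plcg2, which white blood cells carry too, was not tested.

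**Figure D4:**
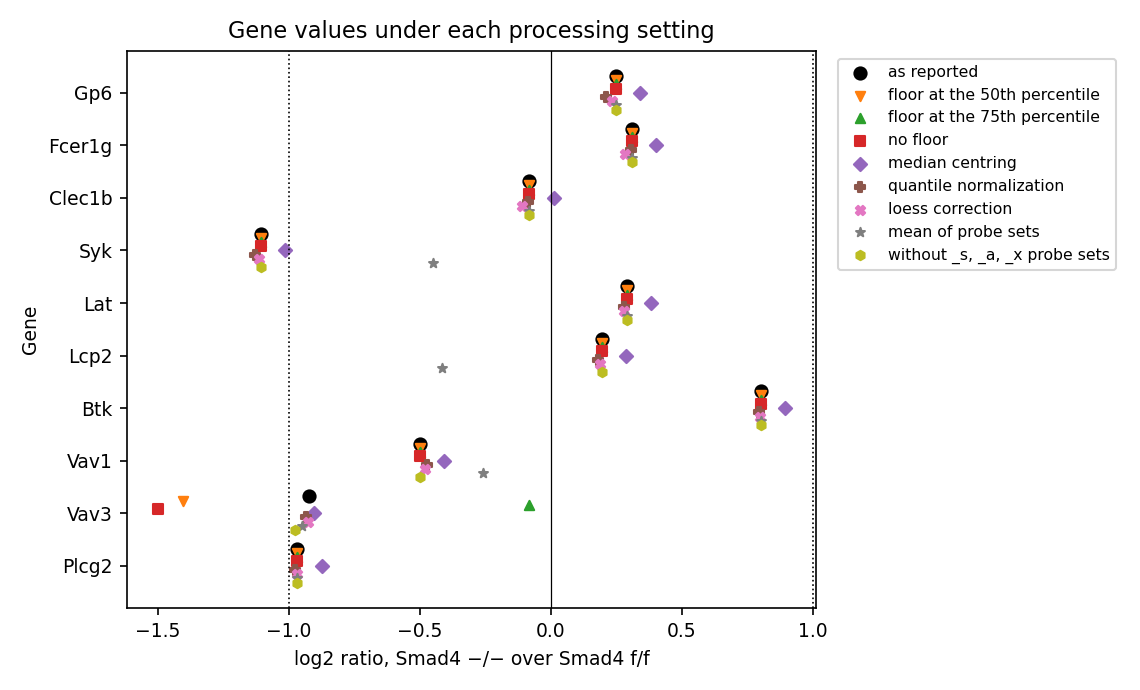
Log2 ratio of Smad4 −/− over Smad4 f/f (horizontal axis) of each member gene under the reported processing (black) and 8 other settings. Dotted lines mark 2-fold. Syk stays between −1.13 and −1.01 except for −0.45 with the mean of its probe sets, Vav3 moves with the floor, and Lcp2 changes sign with the mean of its probe sets.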

How the data were processed

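Total RNA of washed platelets was amplified from the 3′ end and labelled with biotin, per the labels' protocols, and hybridised to 1 array per genotype. The deposited values are log2 signals for 45101 probe sets, of which 64 are controls. MAS5, without version or settings, is the tool given per the submitters' processing notes. From the values, each array was scaled to the same mean signal (500 after trimming 2% at each end), and the scaling was kept. Detection calls were not used here. Gene names come from the platform annotation, checked through gene IDs in a RefSeq gene table, which changed 0 symbols; 932 probe sets with several symbols and 9160 with none entered no gene value. A gene took its probe set with the highest mean, one ending in _x_at only where it had no other, and was measured if that reached the floor.

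There is no test and no p-value, since each group is 1 array. All the probe sets of each member were named. In each pathway list the genes past 2-fold were named, or else the 2 with the largest ratios either way, and in each marker list up to 2 past 2-fold, or else the strongest; other names are said to be picked later or give a marker's level. Lists cover 74 pathway genes and 7 sets of cell markers, and a listed gene without a single-symbol probe set was not analysed here. Members and lists were chosen with earlier results of these data known. The alternatives were a floor at the 50th percentile, at the 75th or none, median centring, quantile normalization, a loess correction, a gene's mean over probe sets, dropping those ending in _s_at, _a_at or _x_at, and thresholds of 1.5-fold and 3-fold. The steps were tested on simulated data with planted changes larger than 2-fold in probe sets well above the floor. That simulation does not cover ratios near 2-fold or signals near the floor. Python 3.11.15, pandas 2.3.3 and statsmodels 0.14.6 were used.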

Additional observations from a re-analysis of the deposited data

How the results depend on the processing

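Of 136 values recomputed under 10 alternatives, 111 moved by less than the pooled SD of 0.48 between probe sets of a gene or, for counts, by at most 1.5 times, and 25 moved by more. Changes of sign were counted only for ratios past 2-fold as reported. Syk was the only such ratio, and it kept its sign. Lcp2 and Clec1b, within 2-fold, did change sign. The number of member genes past 2-fold, 1 as reported, was 2 with the floor at the 50th percentile, 2 with no floor, 0 with the mean of probe sets, 4 at 1.5-fold and 0 at 3-fold. The log2 ratio of Syk was −0.45 with the mean of its probe sets, which takes in the weak probe set that was higher in Smad4 −/−. Genes past 2-fold in the pathway lists were 1 of 57 as reported, 3 of 63 with a floor at the 50th percentile and 0 of 49 with one at the 75th. They were 6 of 69 with no floor, 2 of 57 with quantile normalization, 10 of 57 at 1.5-fold and 0 of 57 at 3-fold. Member probe sets past 2-fold, 4 as reported, were 2 with a floor at the 75th percentile, 2 with median centring, 9 at 1.5-fold and 0 at 3-fold. Over all measured genes, 776 of 11089 passed 2-fold as reported. The count was 1433 of 13146 with a floor at the 50th percentile, 315 of 7165 with one at the 75th and 5806 of 18193 with no floor. It was 805 of 11251 with quantile normalization and 573 of 11089 with the mean of probe sets. At 1.5-fold it was 2788 of 11089 and at 3-fold 103 of 11089. The counts of member and pathway genes are to be read beside these shares. With the floor at the 50th percentile the same number of member genes and probe sets was measured, 10 and 16, and the added gene past 2-fold was Vav3, whose ratio is a bound set by the floor. The cause of the other moves was not tested. The Lcp2 ratio was −0.42 with the mean of its probe sets, and the median of the members, 0.06 as reported, was −0.17 there and lay between 0.04 and 0.15 under the other alternatives. The ratios of Gp6, Fcer1g, Lat, Btk, Vav1, Vav3 and Plcg2 kept their sign under all alternatives run. Gp6, Fcer1g, Lat, Btk and Plcg2 have 1 probe set each, above every floor used, so only median centring, quantile normalization and loess could move them. The 111 include such fixed values. Vav3 reached the floors only in Smad4 f/f, so with a floor its sign was fixed. No paired analysis was possible because each genotype has 1 array, and for the same reason no replicate could be left out.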
